A study of Mus musculus with 16 samples.

Results

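A set of 36 genes of hypoxia and glycolysis was followed across 15 mouse mammary carcinomas, out of 27179 genes in the count table. They are a fixed list of 36 mouse symbols, all found in the table and all above the filter on low counts, and they divide into 24 targets of the hypoxia-inducible factors (HIF) and 12 core enzymes of glycolysis. HIF also raises genes of glycolysis, so this split does not part HIF-regulated genes from other genes. All tumors were Trp53 null, grew from orthotopic transplants of 1 tumor family (family F) in BALB/cJ females aged 8 to 10 weeks at transplantation, and entered treatment at 65 to 100 mm3. Each of 5 groups held 3 tumors, collected on day 7. The TGFbi+RT+anti-PD-L1 group, called triple here, received the TGFβ inhibitor IPW-5371 (20 mg/kg daily), 10 Gy of focal radiation and an antibody to PD-L1 (10 mg/kg weekly). The TGFbi+RT group received inhibitor and radiation, the RT group radiation, the TGFbi group inhibitor, and the Sham group is labelled as control, for which the protocol names an IgG antibody (25 mg/kg). The protocol does not say whether the other groups also received IgG. The agents were injected 24 hours ahead of radiation. A single tumor family limits the results to that family, and the labels do not tie a tumor to a mouse, so p-values measure the spread between these tumors.

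In cells with enough oxygen, prolyl hydroxylases of the EGLN family mark the HIF alpha subunits for destruction through the VHL ubiquitin ligase. When oxygen is scarce the alpha subunits persist, pair with ARNT, bind short DNA motifs and raise transcription of genes for glucose uptake, glycolysis, vessel growth, pH control and collagen modification. Several targets, EGLN3 among them, feed back on the pathway, and tumors also run glycolysis under the control of growth signals that do not need hypoxia.

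Promoter sequence shows the motif through which HIF is known to act, and 4 windows are given, those of the 2 HIF targets and the 2 core enzymes with the smallest p in RT against Sham among members with a window that held it. The motif was searched as the letters ACGTG or GCGTG on both strands. ACGTG also lies inside CACGTG, the E-box read by other factors. Windows are RefSeq promoters on GRCm38.p6, from 250 bases before to 50 bases after a start site, and capitals mark each match, with matches on the opposite strand reading CACGT or CACGC.
Slc2a1, glucose transporter, chr4:119108495-119108794, plus strand: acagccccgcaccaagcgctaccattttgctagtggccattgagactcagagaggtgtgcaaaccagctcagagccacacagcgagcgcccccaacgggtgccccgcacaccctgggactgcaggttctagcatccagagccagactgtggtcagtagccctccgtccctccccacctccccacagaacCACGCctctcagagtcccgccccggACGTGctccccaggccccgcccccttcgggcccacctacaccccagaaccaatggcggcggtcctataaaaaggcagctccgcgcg
Ddit4, inhibitor of mTORC1 signalling, chr10:59951721-59952020, minus strand: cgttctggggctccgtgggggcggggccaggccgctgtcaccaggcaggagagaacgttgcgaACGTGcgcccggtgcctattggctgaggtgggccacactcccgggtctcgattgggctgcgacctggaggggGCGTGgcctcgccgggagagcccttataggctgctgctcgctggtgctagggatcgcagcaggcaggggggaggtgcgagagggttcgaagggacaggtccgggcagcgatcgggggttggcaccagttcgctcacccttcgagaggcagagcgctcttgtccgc
Pfkp, phosphofructokinase, chr13:6648722-6649021, minus strand: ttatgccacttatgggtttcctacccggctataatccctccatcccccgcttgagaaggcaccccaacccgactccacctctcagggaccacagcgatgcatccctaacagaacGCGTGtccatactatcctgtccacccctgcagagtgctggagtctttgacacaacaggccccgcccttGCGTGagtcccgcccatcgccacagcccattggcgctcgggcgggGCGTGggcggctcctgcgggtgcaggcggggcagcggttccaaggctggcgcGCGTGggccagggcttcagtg
Gapdh, glyceraldehyde phosphate dehydrogenase, chr6:125165724-125166023, minus strand: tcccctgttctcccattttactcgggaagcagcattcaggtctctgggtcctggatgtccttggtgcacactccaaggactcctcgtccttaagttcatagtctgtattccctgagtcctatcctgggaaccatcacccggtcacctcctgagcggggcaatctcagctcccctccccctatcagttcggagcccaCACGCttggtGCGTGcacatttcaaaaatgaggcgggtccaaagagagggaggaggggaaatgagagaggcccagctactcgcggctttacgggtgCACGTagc
These windows held 2 matches in Slc2a1, 2 in Ddit4, 4 in Pfkp and 3 in Gapdh. Of the 33 members with a RefSeq window, 31 (93.9%) had a match in at least 1 window, against 46.7% of 27025 genes, and all 21 HIF targets with a window were among them. The 2 members with a window and no match were Gpi1 and Tpi1, and the letters are then only absent from this window. By window, 41 of 50 member windows (82.0%) and 43.8% of 32851 windows held a match. Member windows also had more G and C, with a median of 64.8% against 52.7% in all windows, and the motif itself is rich in both, so the comparison is not corrected for base composition.

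Levels are given as CPM, which are counts scaled to the size of each library after TMM normalization (trimmed mean of M values). Tumor libraries held 11002869 to 17184023 counts with a median of 13302488. The 36 genes took 0.298% to 0.847% of a library, with the lowest share in triple replicate 2 and the highest in Sham replicate 1. The epithelial marker Epcam was at 110.2 to 203 CPM in every tumor, while Krt8 varied between 0.327 and 33.9 CPM. On the first principal component, which held 46.8% of the variance, the scores of triple replicate 2 and TGFbi+RT replicate 3 were far from those of the other 13 tumors. Several results that rest on them are therefore also given without them. All 3 Sham, all 3 TGFbi and all 3 TGFbi+RT tumors and triple replicate 1 carry the library code A2301, whereas all RT tumors and triple replicates 2 and 3 carry A2304. The labels mark TGFbi+RT replicate 3 and TGFbi replicate 3 as resubmitted libraries, with A2301 in the library name. Code and treatment therefore cannot be told apart in RT against Sham. In bulk RNA, fewer cells of a type and less RNA per cell also cannot be told apart.

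Members were lower in RT tumors than in Sham tumors, with 35 of 36 fitted below, against 47.8% of all genes tested. None passed the adjusted threshold of 0.05 in any comparison in edgeR. The median of the 36 log2 values against the Sham mean was -0.82, -1.43 and 0.01 in the triple tumors, -0.42, -0.05 and -0.40 in the TGFbi+RT tumors, -0.89, -0.78 and -0.52 in the RT tumors, and -0.47, -0.21 and -0.31 in the TGFbi tumors. The 3 triple tumors thus ran from the lowest of the 15 to the level of Sham.

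**Figure D1:**
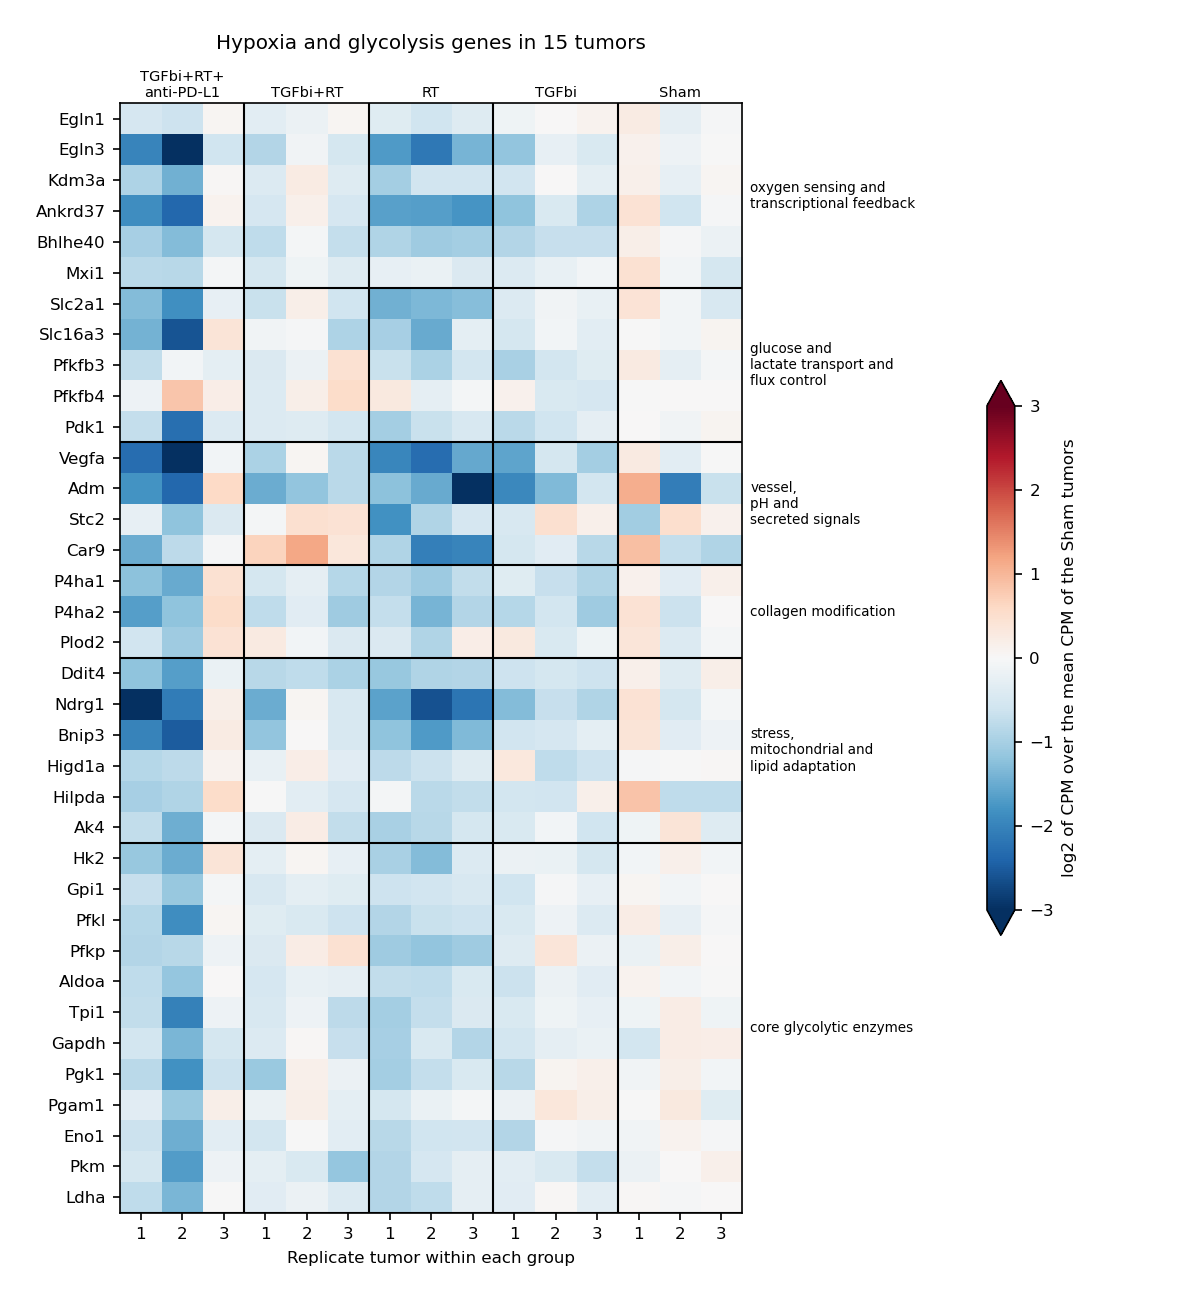
Each cell is the log2 ratio of a tumor's CPM to the mean CPM of the Sham tumors, with genes in rows by role and the 3 tumors of each group in columns; colours saturate at 3 log2 units either way. The RT columns and triple replicates 1 and 2 are mostly blue. The median of 0.01 given in the text for triple replicate 3 was not taken from these cells. It uses log2 values with a small count added, against the mean of the Sham log2 values.

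Oxygen sensing and feedback made up the first role of the HIF targets. Egln3 had 45.7, 16.1 and 119 CPM in triple tumors, 97.7, 168 and 124 in TGFbi+RT tumors, 55.5, 40.5 and 68.9 in RT tumors, 78.8, 152 and 132 in TGFbi tumors, against 198, 163 and 180.1 in Sham tumors. Egln3, a prolyl hydroxylase induced by HIF (chromosome 12, 54178981 to 54203874, GRCm38), was below every Sham tumor in all RT, TGFbi and triple tumors. TGFbi+RT replicate 2 lay within the Sham range of Egln3. The fitted difference of Egln3 was -1.71 ± 0.52 in RT against Sham (unadjusted p of 0.00619, edgeR quasi-likelihood adjusted p of 0.999). Bhlhe40 had 137, 111 and 189.9 CPM in triple tumors, 160.0, 261 and 167 in TGFbi+RT tumors, 146, 129 and 135 in RT tumors, 148, 168 and 167 in TGFbi tumors, against 309.8, 266 and 241 in Sham tumors. Every RT, TGFbi and triple tumor was below every Sham tumor in Bhlhe40, a transcriptional repressor, whereas TGFbi+RT replicate 2 lay within the Sham range. Ankrd37 had 2.13, 1.50 and 8.27 CPM in triple tumors, 5.43, 8.58 and 5.46 in TGFbi+RT tumors, 2.49, 2.44 and 2.25 in RT tumors, 3.34, 5.66 and 4.04 in TGFbi tumors, against 10.5, 5.08 and 7.59 in Sham tumors. Ankrd37, an ankyrin repeat protein, was lowest as a group in RT, where all 3 tumors lay below the Sham range, and triple replicate 3 lay inside it. Mxi1 had 41.1, 40.7 and 69.1 CPM in triple tumors, 49.8, 65.7 and 55.6 in TGFbi+RT tumors, 61.1, 63.2 and 53.9 in RT tumors, 54.3, 62.4 and 68.7 in TGFbi tumors, against 98.4, 68.4 and 49.9 in Sham tumors. Mxi1, a repressor that pairs with MAX, overlapped between RT and Sham. Egln1, the main prolyl hydroxylase for HIF1A, ranged from 41.9 to 77.0 CPM, and Kdm3a, a histone demethylase, from 90.2 to 291 CPM over the 15 tumors. Both were lower in every RT tumor than in every Sham tumor.

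Glucose and lactate genes differed by member. Slc2a1 had 81.5, 56.7 and 169 CPM in triple tumors, 128, 228 and 134 in TGFbi+RT tumors, 73.8, 79.0 and 82.8 in RT tumors, 151, 187 and 174 in TGFbi tumors, against 269, 190.4 and 145 in Sham tumors. Slc2a1, the glucose transporter whose promoter is shown above (gene on chromosome 4, 119108745 to 119137330), was at 73.8 to 82.8 CPM in the RT tumors, below all Sham, TGFbi and TGFbi+RT tumors. Pdk1 had 71.4, 24.3 and 87.0 CPM in triple tumors, 87.0, 89.3 and 78.9 in TGFbi+RT tumors, 57.9, 73.2 and 83.6 in RT tumors, 66.0, 77.4 and 96.2 in TGFbi tumors, against 118, 109 and 123 in Sham tumors. Pdk1, the kinase that holds pyruvate dehydrogenase off, was below every Sham tumor in the RT, TGFbi, TGFbi+RT and triple tumors alike. Pfkfb3 had 77.8, 122 and 105 CPM in triple tumors, 96.5, 114 and 179 in TGFbi+RT tumors, 82.3, 67.1 and 89.0 in RT tumors, 66.5, 89.0 and 101 in TGFbi tumors, against 157, 108 and 125 in Sham tumors. Pfkfb3, a producer of the activator of phosphofructokinase, reached its highest value in TGFbi+RT replicate 3 and its lowest in TGFbi replicate 1. Slc16a3, a lactate exporter, ranged from 22.7 CPM in triple replicate 2 to 178 CPM in triple replicate 3. Pfkfb4 had 8.94, 17.9 and 11.6 CPM in triple tumors, 7.51, 11.3 and 14.7 in TGFbi+RT tumors, 12.2, 8.35 and 9.63 in RT tumors, 11.0, 7.34 and 7.11 in TGFbi tumors, against 9.90, 10.1 and 10.0 in Sham tumors. Pfkfb4, a related kinase and phosphatase, was the only member fitted above Sham in RT tumors (0.01 ± 0.30), and its highest value was in triple replicate 2, where most members were lowest.

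Vessel, pH and secreted signals had a median of -1.67 in RT against Sham, the lowest of the 5 roles, and -1.02 without Sham replicate 1, which had the highest Adm and Car9 of the Sham tumors. Adm was then at -0.60 and Car9 at -0.73 in that comparison. Vegfa had 101, 40.9 and 459.9 CPM in triple tumors, 255, 510.2 and 281 in TGFbi+RT tumors, 125, 101 and 170.2 in RT tumors, 164, 341 and 243 in TGFbi tumors, against 588, 392 and 489 in Sham tumors. Vegfa, the main vessel growth factor (chromosome 17, 46016993 to 46032377), was below Sham in every RT and every TGFbi tumor, and triple replicate 3 was within the Sham range. Car9 had 1.60, 2.59 and 4.39 CPM in triple tumors, 7.07, 9.91 and 5.63 in TGFbi+RT tumors, 2.37, 1.09 and 1.12 in RT tumors, 3.08, 3.51 and 2.51 in TGFbi tumors, against 8.29, 2.70 and 2.40 in Sham tumors. Car9, a membrane carbonic anhydrase that acidifies the surroundings (chromosome 4, 43507026 to 43513725), had few counts, and its 3 TGFbi+RT tumors were above every RT, TGFbi and triple tumor. Sham replicate 1 set the Sham mean of Car9, since the other 2 Sham tumors were at 2.70 and 2.40 CPM. Stc2 had 17.6, 8.99 and 15.3 CPM in triple tumors, 20.1, 28.8 and 27.9 in TGFbi+RT tumors, 5.86, 11.2 and 14.6 in RT tumors, 14.9, 28.9 and 23.1 in TGFbi tumors, against 10.1, 29.6 and 22.6 in Sham tumors. Stc2, a secreted glycoprotein, was higher in every TGFbi+RT tumor than in every RT or triple tumor, with Sham spread over both. Adm, the vasodilator peptide adrenomedullin, ranged from 1.27 CPM in RT replicate 3 to 31.4 CPM in Sham replicate 1, and its groups overlapped in all 8 comparisons.

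Collagen-modifying enzymes followed. P4ha2 had 14.1, 19.3 and 65.3 CPM in triple tumors, 26.2, 35.4 and 21.1 in TGFbi+RT tumors, 27.1, 16.8 and 24.2 in RT tumors, 24.7, 30.2 and 21.2 in TGFbi tumors, against 59.9, 28.4 and 45.1 in Sham tumors. P4ha2, a collagen prolyl hydroxylase subunit, was below the Sham range in the RT tumors, and its highest value was in triple replicate 3. P4ha1, a related subunit, ranged from 58.7 to 229.6 CPM, and Plod2, a lysyl hydroxylase, from 56.9 to 162 CPM. P4ha1 did not overlap between RT and Sham, whereas Plod2 did.

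Stress, mitochondrial and lipid genes made up the last role. Ddit4 had 76.2, 55.5 and 154 CPM in triple tumors, 99.0, 103 and 91.2 in TGFbi+RT tumors, 79.8, 94.3 and 95.8 in RT tumors, 114, 123 and 114 in TGFbi tumors, against 195, 134 and 198 in Sham tumors. Ddit4 was below every Sham tumor in all RT, TGFbi and TGFbi+RT tumors and in triple replicates 1 and 2. Ndrg1 had 43.1, 81.7 and 392 CPM in triple tumors, 125, 363 and 248 in TGFbi+RT tumors, 114, 57.3 and 76.1 in RT tumors, 141, 217 and 187 in TGFbi tumors, against 469, 243 and 335 in Sham tumors. Ndrg1, a stress-induced protein, was lower in every RT tumor than in every Sham, TGFbi and TGFbi+RT tumor, and its lowest value was in triple replicate 1. Bnip3, a mitophagy receptor, ranged from 12.8 to 94.5 CPM, and Ak4, a mitochondrial adenylate kinase, from 28.6 to 103 CPM, both without overlap between RT and Sham. Higd1a, a protein of the inner mitochondrial membrane, ranged from 7.34 to 16.4 CPM and did not overlap either. Hilpda, an inhibitor of lipolysis, ranged from 4.87 to 17.6 CPM and overlapped.

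**Figure D2:**
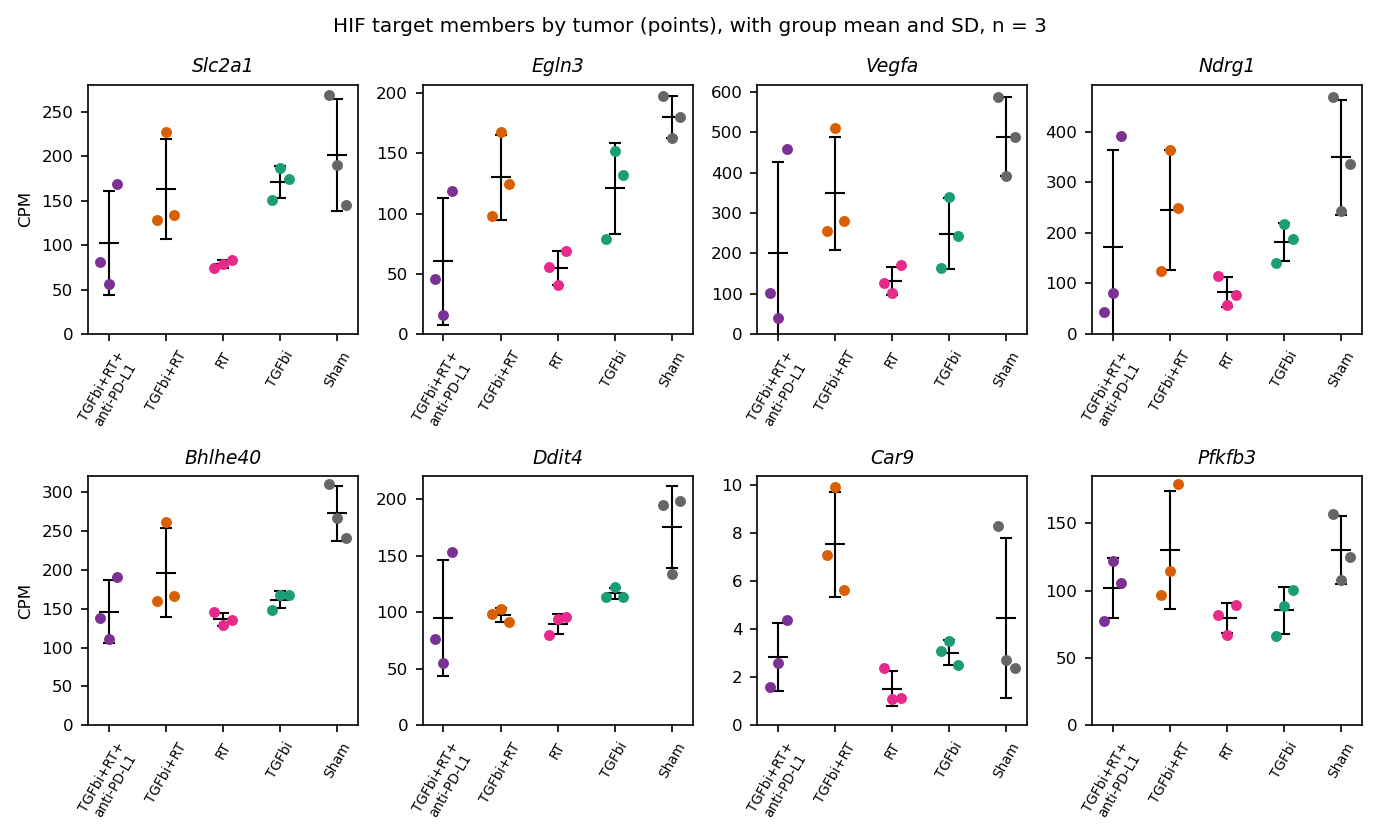
CPM of 8 HIF targets in each of the 15 tumors, by group, with the group mean and SD in black (n = 3). Slc2a1 in the RT tumors lies between 73.8 and 82.8 CPM, and Car9 is highest as a group in the TGFbi+RT tumors.

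Core glycolytic enzymes were described from the first step onward. Hk2 had 58.2, 45.8 and 168 CPM in triple tumors, 105, 134 and 109 in TGFbi+RT tumors, 65.8, 52.1 and 95.9 in RT tumors, 114, 112 and 89.5 in TGFbi tumors, against 120.1, 143 and 121 in Sham tumors. Hk2, the hexokinase of the first step, was below Sham in every RT and TGFbi tumor, and its highest value was in triple replicate 3. Gpi1 had 254, 187 and 390.2 CPM in triple tumors, 294, 333 and 318 in TGFbi+RT tumors, 263, 273 and 293 in RT tumors, 272, 399 and 342 in TGFbi tumors, against 424, 388 and 412 in Sham tumors. Gpi1, which converts glucose 6-phosphate to fructose 6-phosphate, was below Sham in every RT and TGFbi+RT tumor. Pfkl had 89.6, 44.8 and 169 CPM in triple tumors, 125, 117 and 106 in TGFbi+RT tumors, 88.4, 102 and 105 in RT tumors, 118, 146 and 123 in TGFbi tumors, against 190.3, 137 and 158 in Sham tumors. Pfkl, the liver-type phosphofructokinase, was below Sham in the RT and TGFbi+RT tumors, with triple replicate 3 inside the Sham range. Pfkp had 64.1, 65.8 and 106 CPM in triple tumors, 86.3, 137 and 160.1 in TGFbi+RT tumors, 56.3, 51.7 and 55.8 in RT tumors, 90.0, 151 and 103 in TGFbi tumors, against 101, 133 and 117 in Sham tumors. Pfkp, the platelet-type phosphofructokinase, was at 51.7 to 56.3 CPM in the RT tumors, below all other 12 tumors. Aldoa had 402, 304 and 693 CPM in triple tumors, 479.8, 584 and 565 in TGFbi+RT tumors, 409, 402 and 496 in RT tumors, 438, 606 and 538 in TGFbi tumors, against 734, 645 and 676 in Sham tumors. Aldoa, which splits fructose bisphosphate, was below Sham in every RT, TGFbi and TGFbi+RT tumor. Tpi1, which interconverts the triose phosphates, ranged from 142 to 672 CPM, and Pgam1, a phosphoglycerate mutase, from 88.7 to 245 CPM.

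Gapdh had 59.5, 33.4 and 60.03 CPM in triple tumors, 65.4, 88.3 and 53.7 in TGFbi+RT tumors, 43.8, 62.8 and 47.0 in RT tumors, 59.5, 71.4 and 75.6 in TGFbi tumors, against 58.9, 101 and 100 in Sham tumors. Gapdh overlapped between RT and Sham, since Sham replicate 1 was close to the treated tumors. Pgk1 had 78.9, 39.0 and 89.1 CPM in triple tumors, 63.4, 153 and 122 in TGFbi+RT tumors, 68.6, 84.3 and 101 in RT tumors, 77.1, 146 and 153 in TGFbi tumors, against 128, 156 and 131 in Sham tumors. Pgk1, the first enzyme of glycolysis to yield ATP, was below Sham in every RT and triple tumor. Eno1 had 282, 160.4 and 354 CPM in triple tumors, 304, 443 and 356 in TGFbi+RT tumors, 249, 293 and 296 in RT tumors, 240.1, 430.0 and 413 in TGFbi tumors, against 415, 479.5 and 436 in Sham tumors. Eno1, an enolase, was below Sham in every RT and triple tumor as well. Pkm had 1401, 633 and 1813 CPM in triple tumors, 1632, 1473 and 908 in TGFbi+RT tumors, 1101, 1412 and 1679 in RT tumors, 1623, 1458 and 1219 in TGFbi tumors, against 1776, 2046 and 2224 in Sham tumors. Pkm, pyruvate kinase, was below Sham in every RT, TGFbi and TGFbi+RT tumor. Ldha had 267, 175 and 443 CPM in triple tumors, 352, 397 and 339.6 in TGFbi+RT tumors, 244, 263 and 372 in RT tumors, 353, 460.2 and 362 in TGFbi tumors, against 459, 435 and 452 in Sham tumors. Ldha, which turns pyruvate into lactate, was below Sham in every RT and TGFbi+RT tumor and lowest in triple replicate 2. Reads of several of these genes also match other genes: of all 50-base windows of the transcript, 82.5% were found in another gene's transcript for Gapdh, 72.2% for Eno1, 68.0% for Pgk1, 41.5% for Pgam1, 34.4% for Pkm and 25.3% for Gpi1. Among the HIF targets the share was 62.4% for Bnip3 and 36.6% for Higd1a. The other members were at 17.1% (Pfkp) or less. Values of the genes with shared windows are uncertain because the handling of reads with several matches was not given in the sources used here. Egln3, Hk2, Pdk1 and Ddit4 had 0% such windows.

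**Figure D3:**
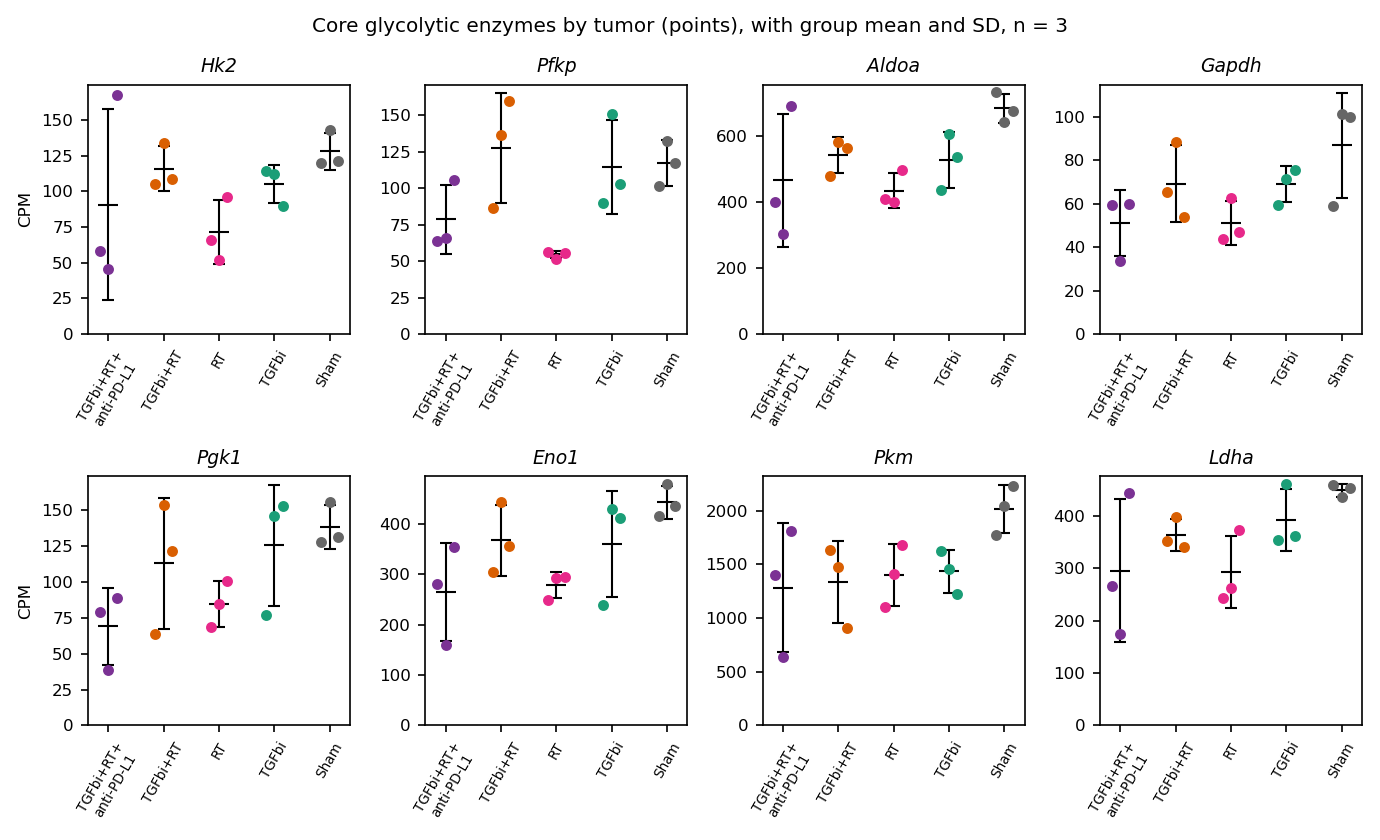
CPM of 8 core glycolytic enzymes in each of the 15 tumors, by group, with the group mean and SD in black (n = 3). Pfkp in the RT tumors is between 51.7 and 56.3 CPM, and triple replicate 2 is at 174.6 CPM for Ldha.

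The effect of a single dose of radiation was the question of the comparison with RT. The median log2 fold change against Sham was -0.93 over the 24 HIF targets and -0.69 over the 12 enzymes, against 0.01 over all genes tested. In edgeR, 0 of 36 members passed the adjusted threshold, with a smallest adjusted p of 0.999, as did 0.0% of all genes tested. At an unadjusted p under 0.05 there were 23 lower members, 15 HIF targets and 8 enzymes, against 2.4% of all genes, and 28 of 36 lay below Sham without overlap, against 6.28% of all genes. limma-voom and DESeq2 also called 0 members, with 22 and 27 at an unadjusted p under 0.05, and DESeq2 called 0.00627% of all genes lower. The smallest p was that of Bhlhe40 (-0.995 ± 0.21, p of 0.000456), followed by Pfkp (-1.10 ± 0.26, 0.00103) and Slc2a1 (-1.36 ± 0.36, 0.00224). The values furthest below Sham were Ndrg1 (-2.08 ± 0.67), Vegfa (-1.89 ± 0.66), Adm (-1.80 ± 0.87) and Egln3, and Pgam1 had the smallest size among the enzymes (-0.25 ± 0.28). The other genes named for this comparison were Ddit4 (-0.97 ± 0.29), Ankrd37 (-1.69 ± 0.53), Gapdh (-0.76 ± 0.27), Aldoa (-0.65 ± 0.24) and Gpi1 (-0.56 ± 0.22). Car9 was at -1.54 ± 0.53, Ldha at -0.62 ± 0.27 and Hk2 at -0.85 ± 0.39. Without Sham replicate 1 or without RT replicate 2 the unadjusted count was 11, without RT replicate 1 it was 12, and at least 34 members were fitted below Sham under every alternative run. With library code as a term in the model, 36 members were fitted lower and 14 had an unadjusted p under 0.05, an estimate that rests on the triple group alone because it is the only group with both codes.

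The inhibitor alone was asked about in TGFbi against Sham, which shares its Sham tumors with the other comparisons against Sham. In edgeR, 34 of 36 members were fitted lower, against 51.4% of all genes, with medians of -0.50 for the HIF targets and -0.28 for the enzymes. The adjusted threshold called 0 members in edgeR, limma-voom and DESeq2, against 0.00624% of all genes lower and 0.0% higher in edgeR and 0.483% lower and 0.244% higher in DESeq2. Bhlhe40 (-0.76 ± 0.21, p of 0.00357, adjusted p of 0.368) and Pfkfb3 (-0.61 ± 0.25, p of 0.0318, adjusted p of 0.533) were the 2 lower members at an unadjusted p under 0.05, each tool counting 2, against 4.99% of all genes. A share of 13 of 36 lay below Sham without overlap, against 7.88% of all genes, 9 of them HIF targets. The next smallest p among HIF targets were those of Ddit4 (-0.59 ± 0.29), P4ha2 (-0.81 ± 0.48) and Pdk1 (-0.54 ± 0.33), and among enzymes those of Aldoa (-0.38 ± 0.24), Pkm (-0.49 ± 0.33), Gpi1 (-0.27 ± 0.22) and Gapdh (-0.33 ± 0.27). Vegfa was at -0.97 ± 0.64, Egln3 at -0.57 ± 0.51, Hk2 at -0.28 ± 0.38 and Ldha at -0.20 ± 0.27. Slc2a1 (-0.24 ± 0.35) and Car9 (-0.56 ± 0.51) turned to 0.02 and 0.25 without Sham replicate 1. All 6 tumors of this comparison carry code A2301, and the fit on that code alone gave medians of -0.51 for the HIF targets and -0.28 for the enzymes, with 10 members at an unadjusted p under 0.05. The count was 9 without triple replicate 3, 4 without triple replicate 2 and 1 without Sham replicate 1 or TGFbi replicate 2. Without Sham replicate 1, 28 members were fitted lower and the HIF target median was -0.30, and without TGFbi replicate 1 the enzyme median was -0.17.

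With inhibitor and radiation together, TGFbi+RT against Sham, 31 members were fitted lower in edgeR, against 51.0% of all genes, with medians of -0.31 for the HIF targets and -0.32 for the enzymes. The adjusted threshold called 0 members in edgeR, limma-voom and DESeq2, against 0.0% of all genes in edgeR and 0.639% lower and 2.38% higher in DESeq2. The 2 lower members at an unadjusted p under 0.05, against 5.28% of all genes, were Ddit4 (-0.85 ± 0.29, adjusted p of 0.222) and Bhlhe40 (-0.47 ± 0.21, adjusted p of 0.317), and limma-voom and DESeq2 also counted 2. Without overlap, 8 members were below Sham, 2 HIF targets (Ddit4 and Pdk1) and 6 enzymes (Pkm, Gpi1, Pfkl, Aldoa, Tpi1 and Ldha), against 7.61% of all genes. The 5 members fitted above Sham were Car9 (0.75 ± 0.51), Stc2 (0.30 ± 0.42), Pfkfb4 (0.16 ± 0.30), Pfkp (0.13 ± 0.26) and Pfkfb3 (0.00 ± 0.25). The remaining named genes were P4ha2 (-0.69 ± 0.48), Mxi1 (-0.34 ± 0.25), Pkm (-0.59 ± 0.33), Gpi1 (-0.37 ± 0.22), Pfkl (-0.48 ± 0.33) and Aldoa (-0.34 ± 0.24). Slc2a1 was at -0.31 ± 0.35, Egln3 at -0.47 ± 0.51, Vegfa at -0.49 ± 0.64, Ldha at -0.31 ± 0.27 and Hk2 at -0.14 ± 0.38. Without triple replicate 2 and TGFbi+RT replicate 3 the medians were -0.28 and -0.30. The HIF target median was -0.10 without Sham replicate 1 and -0.50 without TGFbi+RT replicate 2. Without Sham replicate 1, 9 members were fitted above Sham, and Ddit4 (lower) and Car9 (higher, 1.56) had an unadjusted p under 0.05. The unadjusted count was 9 on code A2301 alone, 7 without triple replicate 2 and 6 without triple replicate 3, and 1 without either TGFbi+RT replicate 1 or 3, Sham replicate 2, RT replicate 2 or 3, or any TGFbi tumor.

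In the triple group against Sham, 35 members were fitted lower in edgeR, against 50.5% of all genes, with medians of -0.65 for the HIF targets and -0.63 for the enzymes. The adjusted threshold called 0 members in edgeR and limma-voom and 0.0% of all genes in edgeR, with a smallest member adjusted p of 0.194. At an unadjusted p under 0.05 there were 13 lower members, 5 HIF targets and 8 enzymes, against 4.93% of all genes, and limma-voom had 22 and DESeq2 16. DESeq2 called Bhlhe40 (adjusted p of 0.00741) and Egln3 (adjusted p of 0.0493) lower, against 0.639% of all genes lower and 3.24% higher in that tool. Without overlap, 6 members were below Sham (Bhlhe40, Egln3, Pdk1, Pgk1, Eno1 and Tpi1), against 7.15% of all genes. The named genes were Bhlhe40 (-0.90 ± 0.21), Ddit4 (-0.89 ± 0.29), Egln3 (-1.58 ± 0.52), Pdk1 (-0.94 ± 0.33), Slc2a1 (-0.98 ± 0.35), Gapdh (-0.77 ± 0.27), Pgk1 (-1.003 ± 0.36), Eno1 (-0.74 ± 0.27) and Gpi1 (-0.56 ± 0.22). Vegfa was at -1.29 ± 0.65, Car9 at -0.65 ± 0.51, Ldha at -0.61 ± 0.27 and Hk2 at -0.50 ± 0.38. Single tumors decided these counts: 31 members had an unadjusted p under 0.05 without triple replicate 3, 7 without triple replicate 1 and 4 without triple replicate 2. Without triple replicate 3, edgeR called Ddit4 (-1.42, adjusted p of 0.0465), and the medians were -1.23 and -1.001. Without triple replicate 2 they were -0.40 and -0.36, and without TGFbi+RT replicate 3 as well the count was 6. On code A2301 alone, where triple replicate 1 is the only triple tumor, the medians were -1.12 and -0.76. Car9 turned to 0.15 without Sham replicate 1.

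**Figure D4:**
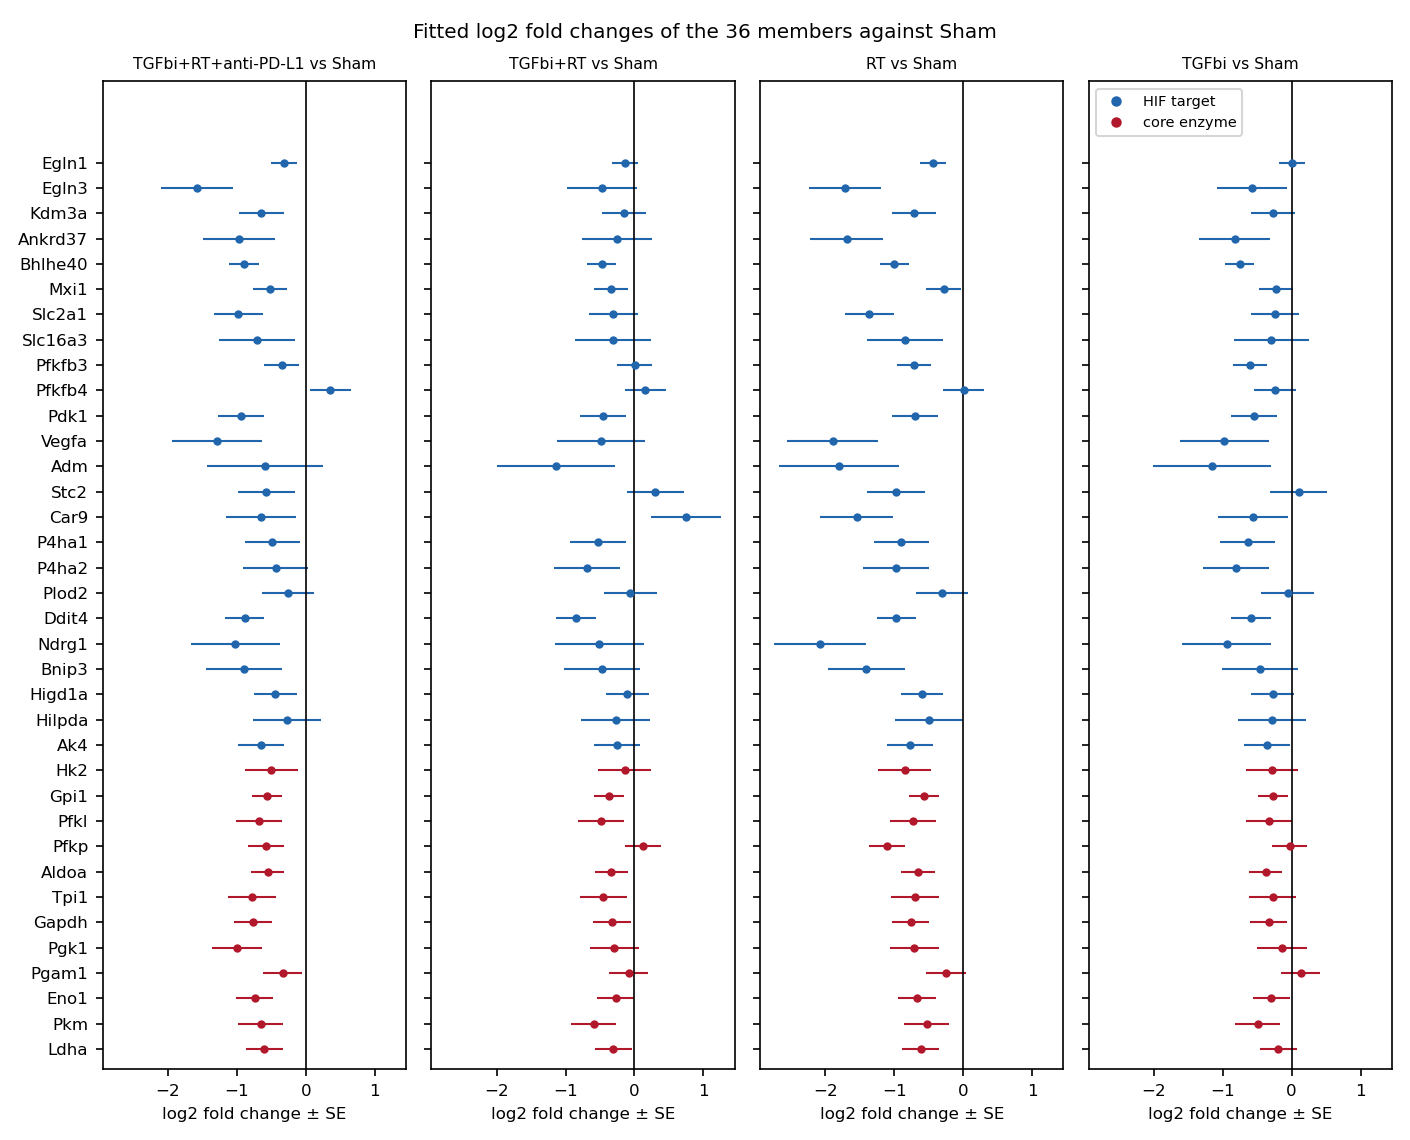
Log2 fold change with its standard error for each of the 36 members against Sham, from edgeR, with HIF targets in blue and core enzymes in red. In RT against Sham 35 members lie left of 0, and Car9 is at 0.75 ± 0.51 in TGFbi+RT against Sham.

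Adding the inhibitor to radiation was compared directly in TGFbi+RT against RT, in which no Sham tumor takes part. Its RT tumors are the same as in RT against Sham, so the 2 comparisons are not separate. In edgeR, 34 of 36 members were fitted higher, against 50.2% of all genes, with medians of 0.53 for the HIF targets and 0.31 for the enzymes, against 0.00 for all genes. The adjusted threshold called 0 members in edgeR and limma-voom and 0.0% of all genes in edgeR. At an unadjusted p under 0.05 there were 9 higher members, 8 HIF targets and Pfkp, against 5.83% of all genes, with 9 in limma-voom and 10 in DESeq2. Without overlap, 18 members were above RT, 13 HIF targets and 5 enzymes, against 7.66% of all genes. Car9 (2.29 ± 0.54, p of 0.000922) and Pfkp (1.23 ± 0.26, p of 0.000437) had the smallest p, and DESeq2 called both, with an adjusted p of 0.0156 for Car9 and 0.00800 for Pfkp against 0.414 and 0.409 in edgeR. DESeq2 called 0.295% of all genes higher and 0.1% lower in this comparison. Next came Stc2 (1.28 ± 0.42), Slc2a1 (1.05 ± 0.35), Pfkfb3 (0.71 ± 0.25) and Ankrd37 (1.43 ± 0.53), and among enzymes Hk2 (0.70 ± 0.39), Gapdh (0.43 ± 0.27) and Eno1 (0.40 ± 0.27). Egln3 was at 1.24 ± 0.52, Vegfa at 1.40 ± 0.65 and Ldha at 0.31 ± 0.27. The 2 members fitted lower were Mxi1 (-0.06 ± 0.25) and Pkm (-0.06 ± 0.32). Without TGFbi+RT replicate 2 the unadjusted count was 4 and without RT replicate 2 it was 5. Without TGFbi+RT replicate 3 and triple replicate 2 it was 12, with medians of 0.62 and 0.36. All TGFbi+RT tumors carry code A2301 and all RT tumors A2304, so code and inhibitor cannot be told apart here.

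The interaction asked whether the difference that goes with radiation was the same with and without the inhibitor. All 36 members had a positive interaction value, against 53.3% of all genes, meaning that the fitted value in TGFbi+RT against TGFbi was above that in RT against Sham. The interaction reuses the RT and Sham tumors of RT against Sham, so its signs are not a result separate from that comparison. The medians were 1.05 for the HIF targets and 0.56 for the enzymes, against 0.03 for all genes. In edgeR the adjusted threshold called 0 members and 0.0% of all genes, with 9 members at an unadjusted p under 0.05 against 2.52% of all genes, and limma-voom and DESeq2 each called 0 and counted 9. The 9 were Bhlhe40 (1.28 ± 0.30), Car9 (2.86 ± 0.74), Pfkfb3 (1.32 ± 0.36), Ankrd37 (2.26 ± 0.74), Ndrg1 (2.51 ± 0.92), Vegfa (2.37 ± 0.91), Slc2a1 (1.29 ± 0.50), Egln3 (1.82 ± 0.73) and Pfkp (1.26 ± 0.37). The unadjusted count was 21 in a fit on the 12 tumors of these groups, 17 without triple replicate 2, 16 without triple replicate 3 and 19 without triple replicate 2 and TGFbi+RT replicate 3, while it was 6 without TGFbi+RT replicate 2 and 8 without TGFbi replicate 1. Only the RT group of the 4 that enter carries code A2304, so the interaction and the code cannot be told apart. Radiation in the presence of the inhibitor, TGFbi+RT against TGFbi, had all 6 tumors on code A2301. Of the 36 members, 23 were fitted higher, against 53.7% of all genes, and 13 lower, with medians of 0.11 and -0.10. The majority turned to 22 lower and 14 higher without TGFbi replicate 1 or without TGFbi+RT replicate 2, and the enzyme median to 0.025 without TGFbi replicate 2. The adjusted threshold called 0 in edgeR and 0.0% of all genes, and the 2 at an unadjusted p under 0.05, against 4.35% of all genes higher, were Car9 (1.31 ± 0.52) and Pfkfb3 (0.61 ± 0.25). limma-voom and DESeq2 also called 0 and counted 2. Car9 was the 1 member above TGFbi without overlap, against 6.38% of all genes. Without TGFbi replicate 1 the unadjusted count was 0, and it was 1 without TGFbi replicate 2 or 3 or TGFbi+RT replicate 2 or 3.

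Adding the antibody was read from the triple group against TGFbi+RT, where 31 members were fitted lower, against 45.3% of all genes, with medians of -0.39 for the HIF targets and -0.31 for the enzymes. In edgeR the adjusted threshold called 0 members and 0.0% of all genes, and the 2 lower members at an unadjusted p under 0.05, against 1.3% of all genes, were Pfkp (-0.70 ± 0.26) and Car9 (-1.40 ± 0.52). limma-voom and DESeq2 also called 0, with 6 and 4 at an unadjusted p under 0.05. Car9 and Stc2 were the 2 members below TGFbi+RT without overlap, against 2.88% of all genes. Without triple replicate 3 the medians were -0.84 and -0.73, with 25 members at an unadjusted p under 0.05, without TGFbi+RT replicate 1 the count was 5, and without triple replicate 1 or 2 or TGFbi+RT replicate 2 it was 1. Without triple replicate 2 and TGFbi+RT replicate 3 the medians were -0.19 and -0.09. Against RT, 28 members of the triple group were fitted higher, against 49.4% of all genes, with medians of 0.28 and -0.00, and 0 had an adjusted or an unadjusted p under 0.05 in edgeR, against 4.65% of all genes higher at an unadjusted p and 0.0% at an adjusted p. limma-voom and DESeq2 had 0 at either p, and limma-voom fitted 18 members higher and 18 lower. Pfkp was the 1 member above RT without overlap, against 3.87% of all genes. The HIF target median of that comparison turned to -0.43 without triple replicate 3, with 5 members at an unadjusted p under 0.05, all in the lower direction, and on code A2304 alone it was 0.43. Without triple replicate 2 and TGFbi+RT replicate 3 the medians were 0.51 and 0.24. The test for any difference among the 5 groups called 0 members in edgeR, with a smallest adjusted p of 0.294, and 7 had an unadjusted p under 0.05 (Bhlhe40, Pfkp, Car9, Slc2a1, Ddit4, Egln3 and Pfkfb3) against 10.8% of all genes and 0.0% at an adjusted p.

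The triple tumors had the widest spread of the 5 groups in these genes. The median SD of log2 CPM within the triple group was 0.76 over the members and 0.35 over all genes tested. In the other 4 groups the member median and the median of all genes were closer, at 0.36 and 0.35 in TGFbi+RT, 0.26 and 0.22 in RT, 0.27 and 0.25 in TGFbi and 0.26 and 0.31 in Sham. Triple replicate 3 was above triple replicate 2 in 34 of 36 members, with a median ratio of 2.75, and above triple replicate 1 in 35, with a median ratio of 1.81. Triple replicate 2 was the lowest of the 15 tumors in 26 members, 11 of them enzymes, and Sham replicate 1 was the highest in 14.

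Marker genes of other cell types differed between the same tumors. The summed CPM of 8 macrophage markers was 416 to 2548 in the triple tumors, 539.7 to 2014 in TGFbi+RT, 165 to 1040.4 in RT, 365 to 664 in TGFbi and 129 to 457 in Sham. For 8 T cell markers it was 3.29 to 117 in the triple tumors, 4.17 to 36.9 in TGFbi+RT, 3.37 to 8.98 in RT, 1.75 to 6.14 in TGFbi and 0.982 to 4.06 in Sham, with Cd3d, Cd3g and Cd8b1 at 0 in all Sham tumors. Triple replicate 2, lowest in most members, had the highest macrophage sum and the highest T cell sum. Triple replicate 3, with members near Sham, had the lowest T cell sum of its group at 3.29 and a macrophage sum of 1146. Other groups followed this pattern only in part. TGFbi+RT replicates 1, 2 and 3 had macrophage sums of 603, 539.7 and 2014 and T cell sums of 11.8, 4.17 and 36.9. Their member medians against Sham were -0.42, -0.05 and -0.40. Across RT replicates 1, 2 and 3 both sums fell as the member median rose. Their macrophage sums were 1040.4, 300 and 165, their T cell sums 8.98, 4.89 and 3.37, and their medians -0.89, -0.78 and -0.52. Among Sham tumors, replicate 1 had the highest of both sums (457 and 4.06) and also the highest member median (0.14). The 8 fibroblast markers summed to 1403 to 8029 in the triple tumors, 1404 to 3967 in TGFbi+RT, 728 to 7914 in RT, 1775 to 3438 in TGFbi and 415 to 7933 in Sham, with high values in RT replicate 1 and Sham replicate 1. The 8 epithelial markers summed to 551 to 847 in the triple tumors, 734 to 1053 in TGFbi+RT, 725 to 813 in RT, 886 to 1700.4 in TGFbi and 973 to 1030.2 in Sham. By this sum the RT and the triple tumors lay below the Sham tumors without overlap. Single markers differed from the sum: Epcam was at 140.1, 191 and 203 CPM in RT tumors and 166, 143 and 168 CPM in Sham tumors. Krt8 and Krt18 also overlapped between RT and Sham. The 8 endothelial markers summed to 227 to 587 in the triple tumors, 182 to 505 in TGFbi+RT, 123 to 690.4 in RT, 244 to 338 in TGFbi and 122 to 687 in Sham. Of the defining markers, Myh4 was at 0 in all triple, RT, TGFbi and Sham tumors, and 8 skeletal muscle markers summed to at most 3.16 CPM. The part of these markers in the results for the members was not tested.

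Members varied together across tumors. Over the 15 tumors, log2 CPM of Egln3 correlated positively with 34 of the 35 other members, against 47.9% of all genes tested. The median Pearson r was 0.83, against -0.02 over all genes tested, of which 0.212% reached the member median. After Benjamini-Hochberg adjustment over the 35 relations, 32 passed by Pearson's r and 32 by Spearman's rho in a two-sided permutation test. The share of all genes that would pass this test, or the variants below, was not computed. The counts of members that passed therefore have no background to be read against. Vegfa had r of 0.97 and rho of 0.94 (permutation p of 1e-05 for each, the smallest the permutations can give), Aldoa 0.94 and 0.90, and Ldha 0.94 and 0.84. Without triple replicate 2 and TGFbi+RT replicate 3, 27 passed by r. Without the 2 tumors farthest from the median of Egln3, triple replicate 2 and RT replicate 2, the median r was 0.76, and Vegfa had 0.95. Within the 10 tumors of code A2301 the median r was 0.74 and Vegfa had 0.97. With the group means removed the median was 0.77, and 12 of the 35 passed an exact permutation test over all 7776 orders within groups. The triple tumors, with the widest spread in these genes, weigh most in these within-group values. No within-group value without triple replicate 2 is given. Pfkfb4 was the 1 negative member (r of -0.39, rho of -0.13), and neither Pfkfb4 nor Hilpda (0.46 and 0.46) passed by either measure. Pfkfb3 passed by rho (0.58) and not by r (0.40), and Plod2 by r (0.61) and not by rho (0.48).

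**Figure D5:**
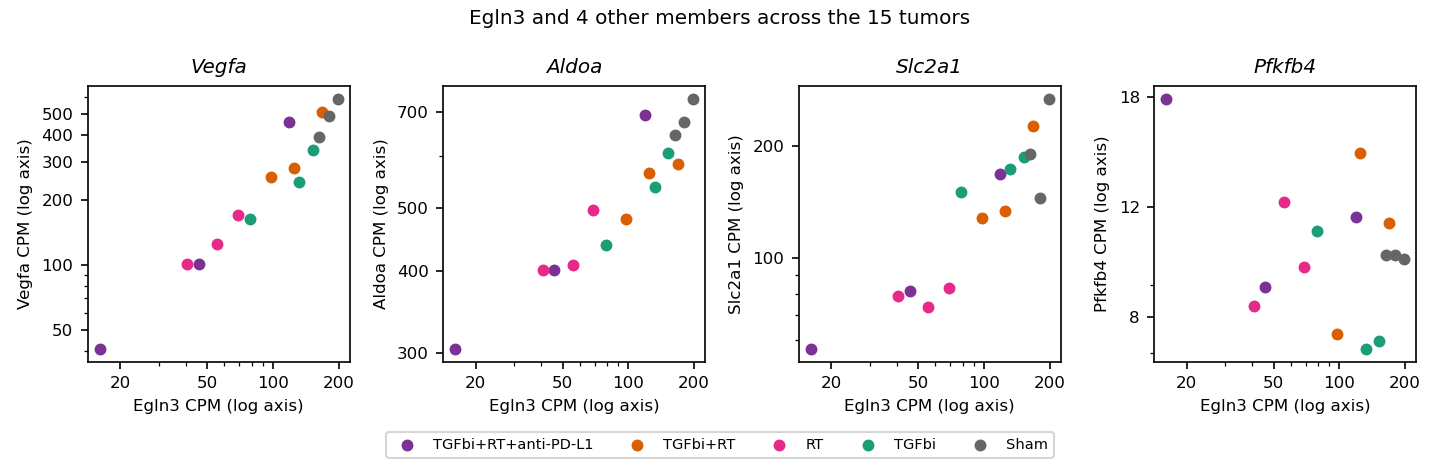
CPM of Vegfa, Aldoa, Slc2a1 and Pfkfb4 against CPM of Egln3 on log axes, with 1 point per tumor coloured by group. Vegfa (r of 0.97) and Aldoa (0.94) are higher where Egln3 is higher, and Pfkfb4 (-0.39) is not.

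HIF subunits and regulators were a list of 15 genes. In RT against Sham 1 was lower and 1 higher at an unadjusted p under 0.05, against 2.4% lower and 1.79% higher of all genes, with a median of -0.06, and 0 passed the adjusted threshold. Hif1a had 141, 233 and 235 CPM in triple tumors, 164, 176 and 245 in TGFbi+RT tumors, 204, 144 and 174 in RT tumors, 172, 152 and 188 in TGFbi tumors, against 261, 147 and 146 in Sham tumors. Hif1a, the alpha subunit regulated mainly through protein stability, overlapped between RT and Sham (-0.08 ± 0.26). Epas1 had 77.2, 301 and 105 CPM in triple tumors, 86.0, 58.3 and 250.5 in TGFbi+RT tumors, 178, 62.8 and 43.5 in RT tumors, 94.4, 63.2 and 92.5 in TGFbi tumors, against 129, 40.2 and 49.6 in Sham tumors. Epas1, the HIF2 alpha subunit, was highest in triple replicate 2 and TGFbi+RT replicate 3, the tumors with the highest macrophage sums. Arnt had 75.8, 85.8 and 90.9 CPM in triple tumors, 90.0, 87.1 and 82.6 in TGFbi+RT tumors, 79.6, 79.0 and 89.8 in RT tumors, 89.2, 69.0 and 71.8 in TGFbi tumors, against 117, 105 and 103 in Sham tumors. Arnt, the common partner, was below every Sham tumor in all 12 treated tumors, at -0.39 ± 0.12 in RT against Sham (p of 0.00736, adjusted p of 0.999). Vhl had 21.5, 20.9 and 26.9 CPM in triple tumors, 21.0, 31.5 and 25.6 in TGFbi+RT tumors, 22.3, 20.8 and 22.1 in RT tumors, 19.4, 23.0 and 27.3 in TGFbi tumors, against 27.1, 27.2 and 26.4 in Sham tumors. Vhl, the substrate receptor of the ligase, was at -0.31 ± 0.17 in RT against Sham. Arnt2 had 44.1, 29.2 and 29.8 CPM in triple tumors, 34.97, 46.7 and 35.8 in TGFbi+RT tumors, 40.6, 54.1 and 46.9 in RT tumors, 23.6, 57.0 and 41.9 in TGFbi tumors, against 60.7, 65.5 and 52.6 in Sham tumors. Arnt2, a paralogue of Arnt, was below every Sham tumor in the triple and TGFbi+RT tumors. Hif3a had 0.734, 0.885 and 1.01 CPM in triple tumors, 1.26, 0.236 and 0.853 in TGFbi+RT tumors, 0.437, 0.271 and 0.913 in RT tumors, 0.264, 0.159 and 0.242 in TGFbi tumors, against 0.0597, 0.246 and 0.130 in Sham tumors. Hif3a, a further alpha subunit, was above the Sham range in all RT and triple tumors at a level of few counts.

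Other hypoxia-responsive genes, 32 in number and outside the 36, had a median of -0.50 in RT against Sham, with 6 lower and 0 higher at an unadjusted p under 0.05, against 2.4% and 1.79% of all genes, and 0 at an adjusted p in edgeR. In TGFbi+RT against RT their median was 0.22, with 4 higher, against 5.83% of all genes. Ero1a had 59.7, 43.2 and 205 CPM in triple tumors, 170.3, 199 and 209.6 in TGFbi+RT tumors, 72.3, 58.0 and 94.996 in RT tumors, 152, 222 and 156 in TGFbi tumors, against 158, 118 and 206 in Sham tumors. Ero1a, an oxidase of protein folding, was higher in every TGFbi+RT tumor than in every RT tumor (1.36 ± 0.46, p of 0.0111, adjusted p of 0.47). Pgm1 had 57.9, 44.3 and 106 CPM in triple tumors, 65.2, 88.7 and 65.9 in TGFbi+RT tumors, 55.1, 64.0 and 65.3 in RT tumors, 63.7, 78.8 and 83.1 in TGFbi tumors, against 119, 108 and 104 in Sham tumors. Pgm1, phosphoglucomutase, was below Sham in every RT, TGFbi and TGFbi+RT tumor (-0.85 ± 0.26 in RT against Sham). Nos2 had 2.20, 14.9 and 19.4 CPM in triple tumors, 2.46, 6.22 and 79.8 in TGFbi+RT tumors, 6.86, 2.38 and 1.19 in RT tumors, 4.57, 3.11 and 5.41 in TGFbi tumors, against 14.5, 3.03 and 2.92 in Sham tumors. Nos2, the inducible nitric oxide synthase, was highest in TGFbi+RT replicate 3.

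Of 13 genes of pyruvate entry into mitochondria, 0 had an adjusted or an unadjusted p under 0.05 in edgeR in RT against Sham, where 2.4% of all genes were lower at an unadjusted p, and the median was -0.13. In TGFbi against Sham 3 were lower at an unadjusted p under 0.05, against 4.99% of all genes, with a median of -0.29. Mpc2 had 14.1, 14.9 and 12.5 CPM in triple tumors, 11.3, 11.8 and 10.7 in TGFbi+RT tumors, 15.8, 14.3 and 15.0 in RT tumors, 11.0, 8.69 and 11.6 in TGFbi tumors, against 16.3, 16.5 and 15.4 in Sham tumors. Mpc2, a subunit of the mitochondrial pyruvate carrier, was below every Sham tumor in all TGFbi, TGFbi+RT and triple tumors. In TGFbi against Sham it was at -0.63 ± 0.15 (edgeR p of 0.00109, adjusted p of 0.298). Pdha1 had 118, 88.1 and 94.3 CPM in triple tumors, 75.8, 124 and 106 in TGFbi+RT tumors, 127, 136 and 146 in RT tumors, 98.6, 129 and 119 in TGFbi tumors, against 148, 175 and 121 in Sham tumors. Pdha1, a catalytic subunit of pyruvate dehydrogenase, overlapped between TGFbi and Sham (-0.36 ± 0.19). Pdk3 had 34.1, 27.4 and 24.3 CPM in triple tumors, 19.2, 42.5 and 21.6 in TGFbi+RT tumors, 33.9, 38.1 and 32.0 in RT tumors, 26.1, 19.1 and 21.9 in TGFbi tumors, against 37.0, 48.1 and 34.9 in Sham tumors. Pdk3, a kinase that inhibits the same complex, was below every Sham tumor in all TGFbi and triple tumors (-0.84 ± 0.27 in TGFbi against Sham).

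Other glycolytic isozymes, 17 genes of which 11 were tested, had a median of -0.05 in RT against Sham. Hk3 had 5.20, 52.9 and 20.3 CPM in triple tumors, 8.93, 9.44 and 87.2 in TGFbi+RT tumors, 13.5, 2.99 and 1.48 in RT tumors, 6.16, 5.74 and 9.21 in TGFbi tumors, against 6.56, 1.88 and 2.98 in Sham tumors. Hk3, a hexokinase expressed in myeloid cells, was highest in TGFbi+RT replicate 3 and triple replicate 2. Eno1b had 825, 476 and 1123 CPM in triple tumors, 937, 1166 and 867 in TGFbi+RT tumors, 773, 909 and 952 in RT tumors, 791, 1252 and 1217 in TGFbi tumors, against 1327, 1466 and 1310.4 in Sham tumors. Eno1b, a near copy of Eno1, was below every Sham tumor in all treated tumors (-0.64 ± 0.27 in RT against Sham). Reads of both may be split between them. Eno3 had 2.60, 4.97 and 2.62 CPM in triple tumors, 3.72, 3.46 and 3.58 in TGFbi+RT tumors, 3.06, 2.17 and 2.53 in RT tumors, 3.08, 4.31 and 4.12 in TGFbi tumors, against 2.21, 1.96 and 2.72 in Sham tumors. Eno3, the muscle enolase, was above every Sham tumor in all TGFbi and TGFbi+RT tumors. Per length of exon (RPKM), Hk1 averaged 30.8 in RT and 32.0 in Sham tumors, whereas Hk2 averaged 12.9 in RT and 23.2 in Sham tumors. Ldha averaged 152 RPKM in RT and 233 RPKM in Sham tumors, and its isozyme Ldhb averaged 5.40 RPKM in RT and 5.73 RPKM in Sham tumors. Pkm had 538 RPKM in RT and 775 RPKM in Sham tumors, the highest mean of the 12 enzymes in both. Gapdh, at 41.6 RPKM in RT and 70.4 RPKM in Sham tumors, was below Aldoa, at 239 RPKM in RT and 375 RPKM in Sham tumors, and 82.5% of the Gapdh windows were shared with other genes.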

How the data were processed

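RNA of 15 tumors and 1 internal reference library was sequenced after ribosomal RNA depletion, per the labels. The authors deposited counts of read fragments per Entrez gene, not normalized, on GRCm38, per the submitters' processing notes. The deposited annotation adds other values (exon coordinates and the summed exon length), used for RPKM. The sources used here do not give settings for strand or for reads with several matches, and the column names mention Subread. Symbols matched 25275 of 27179 identifiers.

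In R 4.3.3, edgeR 4.0.16 filtered low counts (filterByExpr, 16017 genes left), scaled libraries by TMM and fitted 1 mean per group over all 15 tumors (10 residual degrees of freedom, common biological coefficient of variation 0.364). Quasi-likelihood F tests covered 8 comparisons of 2 groups, the interaction of TGFbi and RT and any difference among the 5 groups, with Benjamini-Hochberg adjustment over all genes and a threshold of 0.05. Errors are standard errors of the log2 fold change. Alternatives were DESeq2 1.42.0, limma-voom (limma 3.58.1), other scaling and filtering, library code, a replicate block and each tumor left out. The code was tested on simulated data. Replicate numbers did not pair tumors.

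Correlations used 100000 permutations. Members, lists and tests were chosen with earlier results of these data known, so lists get counts and medians without a p. Values per tumor are given for up to 5 HIF targets and 4 enzymes with the smallest p against Sham and in TGFbi+RT against RT, for Slc2a1, Egln3, Car9, Vegfa, Ldha and Hk2, and for up to 3 genes of each context list by the test among 5 groups. Ndrg1 and Pfkfb4 were added after their values were seen. The reference library entered no comparison.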

Additional observations from a re-analysis of the deposited data

Results flagged for a closer look

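The internal reference library, which the labels put in no treatment group, held 6 of the 36 members above the highest Sham tumor, in CPM scaled over all 16 libraries. They were Pkm (2349 CPM), Ndrg1 (555 CPM), Bhlhe40 (334 CPM), P4ha1 (227 CPM), Pfkfb4 (23.0 CPM) and Car9 (15.0 CPM), and all but P4ha1 were above every tumor. Another 20 members were below the lowest Sham tumor, with Egln3 at 13.0 CPM, 0.07 of the Sham mean, and Stc2 at 1.91 CPM, 0.09 of the Sham mean. The labels give its source as mammary carcinoma and its treatment as a reference control. It is 1 library with no replicate.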

How the results depend on the processing

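The count of members past the adjusted threshold was 0 under every alternative run, except where named here. DESeq2 called 2 members in the triple group against Sham and 2 in TGFbi+RT against RT, and edgeR without triple replicate 3 called 1, Ddit4, in the triple group against Sham. With library code as a term, the HIF target median was -1.10 in the triple group against Sham, -1.45 in RT against Sham, 1.23 in TGFbi+RT against RT and 1.62 for the interaction. That term rests on the triple group alone, the only group with both codes. On code A2301 alone, where triple replicate 1 is the only triple tumor, the median was -1.12 in the triple group against Sham. Differences between codes and between triple tumors cannot be told apart here, and the cause was not tested. Leaving out 1 tumor at a time gave HIF target medians of -1.23 to -0.40 and enzyme medians of -1.001 to -0.36 in the triple group against Sham, and -0.84 to -0.12 and -0.73 to -0.014 against TGFbi+RT. Against RT they ran from -0.43 to 0.51 and from -0.42 to 0.24, so the direction rests on triple replicate 3. In RT against Sham they ran from -1.002 to -0.78 and from -0.76 to -0.59, and in TGFbi+RT against RT from 0.32 to 0.62 and from 0.22 to 0.41. They ran from -0.59 to -0.30 and from -0.36 to -0.17 in TGFbi against Sham, from -0.50 to -0.099 and from -0.43 to -0.27 in TGFbi+RT against Sham, and from 0.0058 to 0.20 and from -0.19 to 0.025 in TGFbi+RT against TGFbi. Slc2a1 (0.022) and Car9 (0.25, with a lowest value of -0.86 without Sham replicate 3) in TGFbi against Sham and Car9 (0.15) in the triple group against Sham turned upward without Sham replicate 1. Same-numbered tumors of different groups did not deviate together (median r of -0.05 over 30 pairs, from -0.58 to 0.67). A fit with the replicate number as a block called 0 members and gave -0.94 for the HIF targets and -0.70 for the enzymes in RT against Sham. The spread between tumors of a group, a common coefficient of variation of 0.364 with 3 tumors each, sets the precision of every value here.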
